A study of Mus musculus with 12 samples.

Results

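Transcript levels of 10 genes for lactoferrin receptor candidates and for the receptor family they come from were followed in mouse spleen neutrophils after birth. They were chosen by symbol and matched to a table of 38887 genes: Lrp1, Lrp2, Lrp8, Lrp10, Lrp12, Itln1, Cd14, Ncl, Sorl1 and Lrpap1. All 10 were in the table, and 9 of them were among the 15494 genes that had enough counts to be tested; Lrp2 was too rare. The libraries were made from polyadenylated RNA of Ly6G+ spleen cells of mice aged 2 days, 7 days, 14 days and 6 weeks, with 3 libraries at each age and 12 in all. At all 4 ages the cells are labelled PMN-MDSC, neutrophil-like myeloid cells that can restrain T cells, and the series asks what governs a suppressive activity that neutrophils of newborns hold for a limited time. No treatment, genotype, strain, sex or number of mice is given for any age, and whether libraries of the same age stem from different animals is not stated, so p-values here reflect variation among libraries that could be purely technical. Levels are given in CPM, read counts scaled to a common normalised library size.

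Lactoferrin is an iron-binding protein of milk and of the secondary granules of neutrophils. Several cell-surface proteins are known to bind it or take it up, among them the large endocytic receptors Lrp1 and Lrp2, the intelectin Itln1, the lipopolysaccharide co-receptor Cd14, and nucleolin (Ncl), a nucleolar protein that some cells also carry at their surface. Receptors of the LDL receptor family bind many ligands through cysteine-rich repeats, carry them into endosomes and return to the surface, and the endoplasmic reticulum chaperone Lrpap1 keeps them from binding ligands before they get there.

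Totals ran from 34495767 to 38795913 counts per library. The neutrophil markers Ly6g, S100a8, S100a9, Csf3r, Cxcr2, Mmp8, Mmp9 and Ngp summed to 51760 to 75517 CPM in every library, and no marker of this list was at 0. A pair of libraries stood apart from the others of their age. Replicate 2 of 2 days had Spearman correlations across genes of 0.971 and 0.98 with its partners, against 0.992 between the other two, and replicate 1 of 14 days had 0.986 with each partner, against 0.994. Both had the highest summed neutrophil markers of their age, 72074 and 75517 CPM. Markers of other cells were also present and moved with age. Those of monocytes and macrophages (12 genes) summed to 831 to 1157 CPM at 2 days, 2172 to 2218 at 7 days, 1218 to 1559 at 14 days and 4003 to 4289 at 6 weeks. Mast cell markers (7 genes) summed to 2640 to 5018 CPM at 2 days and to no more than 107 at any later age. Erythroid markers (8 genes) summed to 1135 to 1838 CPM at 7 days and to no more than 343 elsewhere, and markers of granulocyte progenitors (5 genes) to 112 to 416 CPM at 2 and 7 days and 37.6 to 89.3 later. B cell markers summed to 140 to 590 CPM, and those of stromal and endothelial cells, dendritic cells, T and NK cells, megakaryocytes and mesothelial cells to at most 111, 89.6, 81.6, 45.3 and 2.81 CPM. Transcripts of 4 Y-linked genes gave 1816 to 4010 counts in each library of 2 and 7 days and 0 or 1 in each older one, so sex cannot be told apart from age between those pairs of ages. In such mixed samples, fewer cells of a type and less RNA per cell cannot be told apart.

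The genes lie on 9 chromosomes, and Itln1 and Ncl share chromosome 1. The stretch of 250 bases before the RefSeq start of transcription (GRCm38.p6, which is mm10) was found for 8 of the 10 genes, all but Lrp12 and Cd14. Printed here, 5′ to 3′ on the strand of the gene, are the stretches of the 5 genes whose levels carry the results: Lrp1 and Itln1 for their changes with age, and Lrp10, Sorl1 and Ncl because the first pair moved together and the last moved the opposite way. Capitals mark matches, on either strand, to 7 motifs: the GC box GGGCGG, the E-box CACGTG, the TATA box TATAAA, the PU.1 core GAGGAAG, a C/EBP site of the form TTGCNNAA, the CCAAT box CCAAT and the ETS motif CCGGAAG.
Lrp1, chr10:127621149-127621398, minus strand: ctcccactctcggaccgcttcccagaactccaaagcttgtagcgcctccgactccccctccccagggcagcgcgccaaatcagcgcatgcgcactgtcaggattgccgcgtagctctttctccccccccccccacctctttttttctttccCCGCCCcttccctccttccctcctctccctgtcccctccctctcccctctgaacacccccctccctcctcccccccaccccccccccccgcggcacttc
Itln1, chr1:171535295-171535544, minus strand: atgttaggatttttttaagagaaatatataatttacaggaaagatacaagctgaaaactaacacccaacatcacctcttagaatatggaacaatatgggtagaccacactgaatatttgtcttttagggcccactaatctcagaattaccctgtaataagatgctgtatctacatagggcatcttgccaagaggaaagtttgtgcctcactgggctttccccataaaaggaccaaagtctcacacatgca
Lrp10, chr14:54463897-54464146, plus strand: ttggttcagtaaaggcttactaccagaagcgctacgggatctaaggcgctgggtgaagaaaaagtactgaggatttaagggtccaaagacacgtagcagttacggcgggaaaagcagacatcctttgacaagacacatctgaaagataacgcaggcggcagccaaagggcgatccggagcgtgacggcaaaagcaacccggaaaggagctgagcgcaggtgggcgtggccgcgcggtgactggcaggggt
Sorl1, chr9:42124298-42124547, minus strand: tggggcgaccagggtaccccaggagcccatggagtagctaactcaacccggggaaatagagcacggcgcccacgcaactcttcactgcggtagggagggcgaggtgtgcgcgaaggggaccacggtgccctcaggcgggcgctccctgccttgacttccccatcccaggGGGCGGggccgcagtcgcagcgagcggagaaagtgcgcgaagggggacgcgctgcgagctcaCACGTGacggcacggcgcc
Ncl, chr1:86359456-86359705, minus strand: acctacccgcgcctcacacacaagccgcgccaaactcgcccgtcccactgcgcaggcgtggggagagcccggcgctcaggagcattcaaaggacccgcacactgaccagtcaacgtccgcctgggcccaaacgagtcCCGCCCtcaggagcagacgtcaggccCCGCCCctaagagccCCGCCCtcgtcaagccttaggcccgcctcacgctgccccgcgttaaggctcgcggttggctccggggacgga
The Ncl stretch held 3 GC boxes, with their first bases at -113, -87 and -72, Lrp1 held 1 at -99, and Sorl1 held 1 at -81 and an E-box at -19, where -1 is the last base printed. Among the other genes, Lrpap1 had 5 GC boxes and Lrp2 had 2. Of 32851 stretches of the same length, 32.7% held a GC box and 6.02% an E-box. TATAAA (12.4%), GAGGAAG (10.6%), TTGCNNAA (9.56%), CCAAT (33.8%) and CCGGAAG (6.91%) had no match in any of the 8 stretches. The Itln1 stretch was also the poorest in G and C, with 38% against 55.6% to 69.6% in the other 7 and a median of 52.4% over all stretches. A match describes these letters only.

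Lrp1 is the broad endocytic receptor for apolipoprotein E, protease complexes and lactoferrin. Among those of the 10 genes that were tested and detected in every library, Lrp1 had the largest rise with age. It lies at chr10:127538161-127621148 on the minus strand (GRCm38, GENCODE M21). Its levels were 104, 93.0 and 81.0 CPM in the libraries of 2 days, 277, 275 and 233 at 7 days, 236, 299 and 305 at 14 days, and 375, 448 and 428 at 6 weeks. The 2-day libraries lay below all others, the 6-week libraries above all others, and the libraries of 7 and 14 days overlapped between them. Lrp1 was 4.5-fold lower at 2 days than at 6 weeks (log2 fold change -2.17, SE 0.15, edgeR adjusted p = 5.01e-07), 1.59-fold lower at 7 days (adjusted p = 0.0018) and 1.49-fold lower at 14 days (adjusted p = 0.0145, kept under 16 of 19 alternative settings). The rise from 2 to 7 days was 2.82-fold (SE 0.14 on the log2 scale, adjusted p = 7.8e-06). Between 7 and 14 days the difference was 0.10 on the log2 scale (95% interval -0.21 to 0.40, adjusted p = 0.594).

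**Figure D1:**
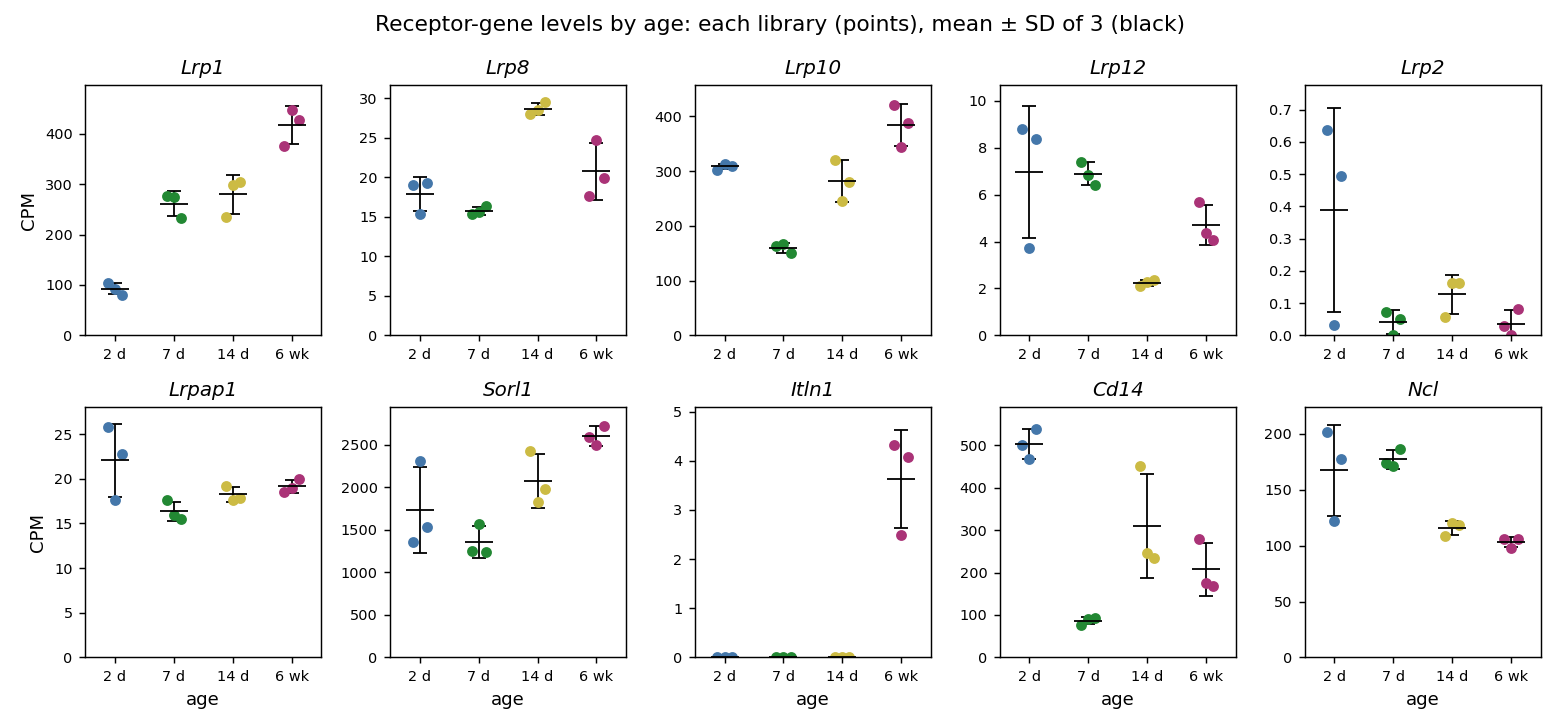
Levels of the 10 genes in CPM (vertical axes, each from 0) at 2 days, 7 days, 14 days and 6 weeks (horizontal axes). Points are libraries and black bars the mean ± SD of 3; Lrp1 lies at 81.0 to 104 CPM at 2 days and 375 to 448 at 6 weeks, and Itln1 is above 0 at 6 weeks only.

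Macrophages carry much Lrp1, and the 12 monocyte and macrophage markers moved with it over part of the series. Of the 12, 10 were lower and 0 higher at 2 days than at 6 weeks (median log2 fold change -2.68, against 0.04 over all genes), and 9 were higher and 0 lower at 7 than at 2 days. Of all genes 19.7% were lower and 20.7% higher in the first of these comparisons, and 22.9% were higher and 25.8% lower in the second. From 7 to 14 days 8 of the 12 fell and 2 rose (Ccr2, Cx3cr1), beside 21.9% and 24% of all genes. Csf1r was among the 2 not called. Their sum went from 2172 to 2218 CPM down to 1218 to 1559, while Lrp1 was at 233 to 277 CPM and then 236 to 305. Within 7 days (replicate 3), 14 days (replicate 1) and 6 weeks (replicate 1), the library with the lowest sum of markers also had the lowest Lrp1. Within 2 days the library with the lowest sum, replicate 1 at 831 CPM, had the highest Lrp1. Lrp1 stood at 2.03 to 3.11 times the macrophage marker Adgre1 at 2 days, 1.44 to 1.74 times at 7 days, 2.70 to 3.12 times at 14 days and 1.68 to 2.13 times at 6 weeks, as a ratio of CPM. Against Csf1r, another marker of the list, the ratio was 0.276 to 0.659 at 2 days, 0.722 to 0.774 at 7 days, 0.49 to 0.664 at 14 days and 0.332 to 0.391 at 6 weeks. The ratio at 7 days was thus the lowest with Adgre1 and the highest with Csf1r. Both ratios were chosen after the levels were seen. The part of macrophages in the rise of Lrp1 was not tested.

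**Figure D2:**
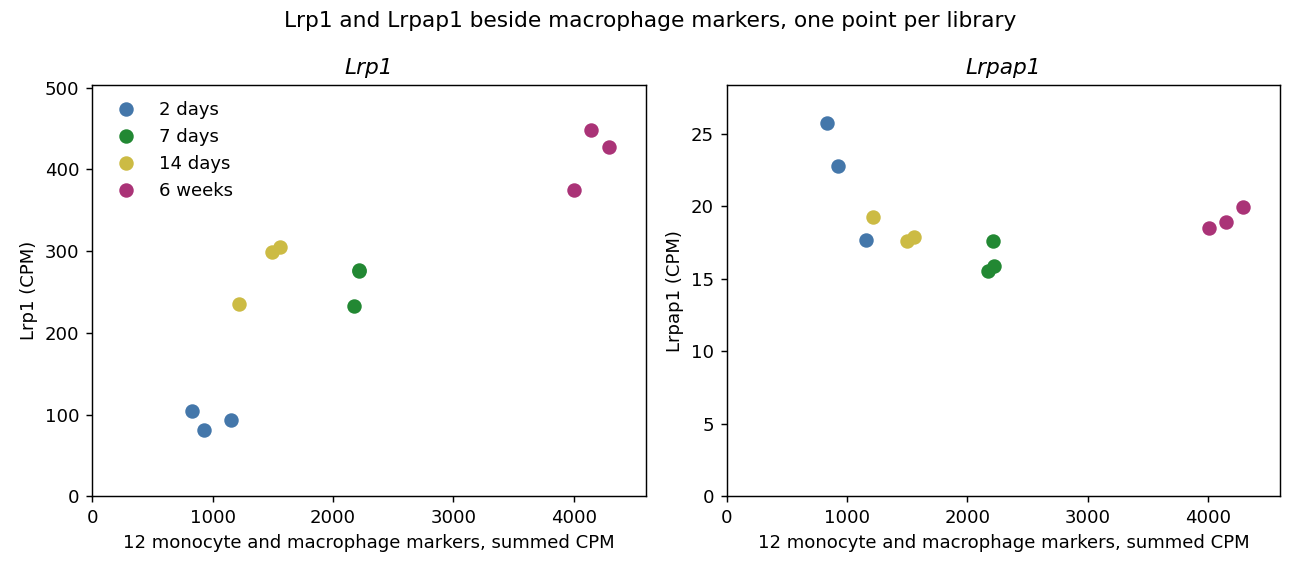
Lrp1 (left) and Lrpap1 (right) in CPM against the summed CPM of 12 monocyte and macrophage markers, 1 point per library, coloured by age. At 14 days Lrp1 was at 236 to 305 CPM beside a marker sum of 1218 to 1559, and at 7 days at 233 to 277 beside 2172 to 2218; Lrpap1 lay between 15.5 and 25.8 CPM throughout.

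Lrpap1, the chaperone of these receptors (chr5:35091501-35105766, minus strand), did not follow Lrp1. It was at 25.8, 17.7 and 22.8 CPM at 2 days, 17.6, 15.9 and 15.5 at 7 days, 19.2, 17.6 and 17.9 at 14 days, and 18.5, 18.9 and 20.0 at 6 weeks. Libraries overlapped in 3 of the 6 pairs of ages, and the spread was widest at 2 days. It was the only one of the 9 tested genes that missed the threshold in the joint test of any difference with age (edgeR adjusted p = 0.0599). Among the 6 pairs of ages it was lower at 7 than at 2 days (log2 fold change -0.43, SE 0.13, adjusted p = 0.0175), a call that was kept under 10 of 19 alternative settings. Without replicate 2 of 2 days, its lowest library there, the 2-day level was above that of 6 weeks by 0.35 (log2, adjusted p = 0.0121). With all libraries this difference was 0.21 (adjusted p = 0.239), and it was called under only 2 of 19 alternatives. The CPM ratio of Lrp1 to Lrpap1, likewise chosen after the levels were seen, was 4.29 ± 0.884 at 2 days, 16 ± 1.2 at 7 days, 15.4 ± 2.75 at 14 days and 21.8 ± 1.73 at 6 weeks (SD, n = 3).

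Lrp10, a family member that travels between the trans-Golgi network and endosomes (chr14:54464137-54471497, plus strand), was lowest at 7 days. Its levels were 302, 313 and 310.1 CPM at 2 days, 163, 167 and 149.8 at 7 days, 321, 246 and 279 at 14 days, and 420, 344 and 387 at 6 weeks. Every 7-day library lay below every other library, and every 6-week library above. Lrp10 was 2.4-fold lower at 7 days than at 6 weeks (log2 fold change -1.26, SE 0.12, adjusted p = 8.59e-06) and 1.93-fold lower than at 2 days (adjusted p = 7e-05), and it rose 1.76-fold from 7 to 14 days (adjusted p = 0.000246). At 14 days it was 1.36-fold below 6 weeks (adjusted p = 0.024, kept under 15 of 19 alternatives). At 2 days the difference from 6 weeks was -0.32 on the log2 scale with no overlap of libraries, and the adjusted p was 0.0556. Without replicate 2 of 2 days the adjusted p was 0.0488. Under the 19 alternatives this difference was called in 7 and not in 12, with adjusted p up to 0.184. Its exons share 475 bases with the antisense gene Gm10366, and the strand of the reads is not stated, so reads of both cannot be told apart there.

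Sorl1 (chr9:41964720-42124297, minus strand) is a sorting receptor that joins LDL receptor repeats to a VPS10 domain and steers cargo between endosomes and the Golgi. Per length of mRNA its mean was the highest of the 10 genes at every age but 2 days, overlapping with Cd14 at 14 days. It was at 1359, 2315 and 1532 CPM at 2 days, 1248, 1571 and 1241 at 7 days, 2427, 1824 and 1978 at 14 days, and 2592, 2495 and 2728 at 6 weeks. The 6-week libraries lay above all others, and within 2 and 14 days the library that stood apart was the highest. Sorl1 was 1.92-fold lower at 7 days than at 6 weeks (log2 fold change -0.94, SE 0.20, adjusted p = 0.00197). At 2 days it was 1.5-fold lower (adjusted p = 0.0341), a call kept under 13 of 19 alternatives, and without replicate 2 of 2 days the difference was -0.84 (adjusted p = 0.000738). The rise from 7 to 14 days, 0.62 on the log2 scale (adjusted p = 0.024), was 0.49 without replicate 1 of 14 days (adjusted p = 0.09). Without replicate 2 of 2 days, Sorl1 was also higher at 14 than at 2 days, by 0.53 (adjusted p = 0.017), against 0.26 with it (adjusted p = 0.381). That difference was called under only 3 of 19 alternatives. An antisense gene, Gm16214, shares 185 exon bases with Sorl1.

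Lrp8, the receptor for reelin and apolipoprotein E (chr4:107802261-107876840, plus strand), peaked at 14 days. Its levels were 19.0, 15.4 and 19.3 CPM at 2 days, 15.3, 15.6 and 16.4 at 7 days, 28.0, 28.6 and 29.5 at 14 days, and 17.6, 24.7 and 20.0 at 6 weeks. All 3 libraries of 14 days were above all 9 others, and those of 2 and 7 days overlapped. Lrp8 was 1.82-fold higher at 14 than at 7 days (log2 fold change 0.86, SE 0.13, adjusted p = 0.000323) and 1.6-fold higher than at 2 days (adjusted p = 0.00288). The differences from 6 weeks were smaller, 0.47 at 14 days (adjusted p = 0.0298) and -0.40 at 7 days (adjusted p = 0.0261), and these 2 calls were kept under 9 and 10 of 19 alternatives.

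Lrp12, another transmembrane member of the family (chr15:39870589-39943994, minus strand), had its lowest levels at the age at which Lrp8 had its highest. It was at 8.81, 3.72 and 8.36 CPM at 2 days, 7.40, 6.85 and 6.41 at 7 days, 2.10, 2.29 and 2.35 at 14 days, and 5.68, 4.34 and 4.07 at 6 weeks. The 14-day libraries lay below all others and close together, while replicate 2 of 2 days lay below the other two of its age and below all of 6 weeks. Lrp12 fell 3.07-fold from 7 to 14 days (log2 fold change -1.62, SE 0.28, adjusted p = 0.00062), was 3.11-fold lower at 14 than at 2 days (adjusted p = 0.00107) and 2.09-fold lower than at 6 weeks (adjusted p = 0.0192, kept under 15 of 19 alternatives). At 2 days it was above 6 weeks by 0.57 on the log2 scale (adjusted p = 0.108), and without replicate 2 of 2 days by 0.87 (adjusted p = 0.00078). Over the 19 alternatives this difference ran from 0.35 to 0.88 and was called under only 2.

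Lrp2, or megalin, the large endocytic receptor of absorptive epithelia (chr2:69424340-69586065, minus strand), reached only 67 counts in the whole series, too few for the test. Of these, 44 came from 2 days, 5 from 7 days, 14 from 14 days and 4 from 6 weeks. Its levels at 2 days were 0.64, 0.03 and 0.49 CPM, and no later library exceeded 0.16 CPM. Replicate 2 of 2 days was thus as low as the later libraries. That library also had the lowest sums of its age for the markers of several other cell types. Mesothelial markers summed to 0.494 CPM against 2.81 and 1.59, stromal and endothelial markers to 53.4 against 110.8 and 106, and mast cell markers to 2640 against 5018 and 4676. Erythroid markers summed to 172 CPM against 343 and 298, progenitor markers to 112 against 416 and 262, and dendritic cell markers to 9.78 against 18.1 and 11.3. Other lists went the opposite way in that library. Monocyte and macrophage markers summed to 1157 CPM against 831 and 928.3, and T and NK cell markers to 38.19 against 31.75 and 32.73. The part of such cells was not tested. With no filter on low counts, the log2 fold change of Lrp2 between 2 days and 6 weeks was 3.30 (edgeR adjusted p = 0.0237). Lrp2 also passed the filter without replicate 1 or without replicate 2 of 6 weeks. There the edgeR adjusted p was 0.0732 and 0.0797, so it was not called.

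Itln1, a lectin that binds microbial sugars and has been described as a lactoferrin receptor of the gut (chr1:171518122-171535294, minus strand), was detected at 6 weeks alone. All 9 libraries of 2, 7 and 14 days had 0 counts, and the 6-week libraries had 155, 94 and 149 counts, or 4.32, 2.49 and 4.07 CPM. Taking 3 counts over the 3 libraries of an age as the most that 0 allows, Itln1 was at least 128-fold higher at 6 weeks than at 2 days, at least 142-fold higher than at 7 days and at least 130-fold higher than at 14 days. The edgeR adjusted p-values were 0.000124, 8.71e-05 and 0.00048, for a gene that passed the filter on low counts through its 6-week libraries alone. All 3 calls held under all 19 alternatives, but with 0 counts at every younger age these could hardly have undone them. The floor covers counting error only.

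Genes with the same pattern were rare and included a neighbour of Itln1. Only 3 genes of the table had 0 counts in all 9 younger libraries and 10 or more in each 6-week library, a rule set after the values of Itln1 were seen. They were Itln1, the adjacent pseudogene Gm9765 (chr1:171515233-171516922; 46, 23 and 46 counts at 6 weeks) and Gm26825, a long non-coding RNA on chromosome 5 with 9787, 6136 and 5896 counts. By Pearson correlation of log2 CPM over the 12 libraries, the 3 genes most like Itln1 of 12245 compared were Gm26825 (r = 0.998), Ifi202b (r = 0.998) and the processed pseudogene Gm11942 (r = 0.980). Ifi202b, an interferon-inducible gene whose expression is known to differ between inbred mouse strains, lies on the same chromosome, 2.44 Mb from Itln1. It had 539, 499 and 608 counts at 6 weeks and 1 count in all younger libraries together. Some strains are known to carry a further intelectin gene close in sequence to Itln1, and reads of such a gene could be counted under Itln1. The labels give no strain or source of the animals. A difference in either between the 6-week and the younger mice cannot be told apart from age, here or in any comparison of the 10 genes with 6 weeks.

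**Figure D3:**
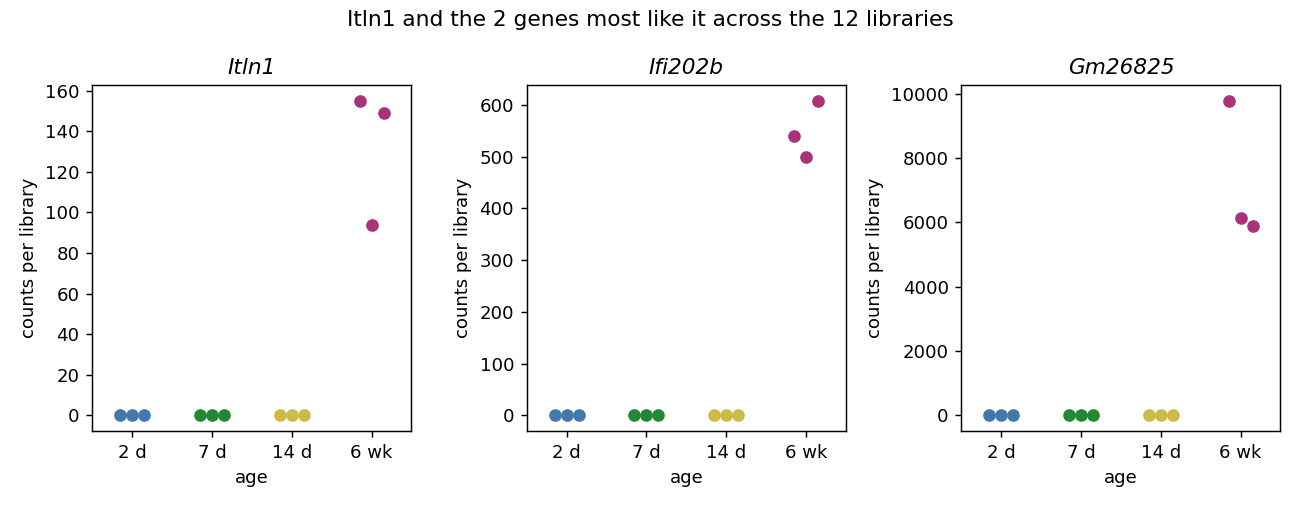
Counts per library (vertical axes, linear) of Itln1, Ifi202b and Gm26825 at the 4 ages (horizontal axes), 1 point per library. At 6 weeks Itln1 had 94 to 155 counts, Ifi202b 499 to 608 and Gm26825 5896 to 9787; the 9 younger libraries had 0, apart from 1 count of Ifi202b at 7 days.

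Cd14, the co-receptor that hands lipopolysaccharide to Tlr4 and also binds lactoferrin, lies on chromosome 18 and changed most between 2 and 7 days. Its levels were 499.9, 468 and 539 CPM at 2 days, 77.2, 89.6 and 92.0 at 7 days, 450.2, 245 and 234 at 14 days, and 279.6, 176 and 168 at 6 weeks. The 2-day libraries were above and the 7-day libraries below all others. Replicate 1 was well above its partners both at 14 days and at 6 weeks. Cd14 fell 5.82-fold from 2 to 7 days (log2 fold change -2.54, SE 0.26, adjusted p = 1.33e-05) and rose 3.59-fold from 7 to 14 days (log2 1.84, SE 0.26, adjusted p = 0.000145). Against 6 weeks it was 2.42-fold higher at 2 days (adjusted p = 0.00167) and 2.41-fold lower at 7 days (adjusted p = 0.00129). The difference between 14 and 2 days, -0.70 on the log2 scale, had an adjusted p of 0.0587, and without replicate 1 of 14 days it was -1.07 (adjusted p = 0.00302). This difference was called under 8 of 19 alternatives.

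Partners of Cd14 in lipopolysaccharide sensing changed in both directions. Of 11 genes, all tested, 2 were higher (Lbp, Traf6) and 5 lower at 2 days than at 6 weeks (median log2 fold change -0.46, against 0.04 over all genes), beside 20.7% of all genes higher and 19.7% lower. At 7 days 1 was higher (Lbp) and 6 were lower (median -0.86, against -0.01), beside 24.5% higher and 26.6% lower. Myd88, the adaptor of most Toll-like receptors, was at 210 to 279 CPM at 2 days, 82.4 to 104 at 7 days, 189 to 262 at 14 days and 338 to 470.1 at 6 weeks. It was 4.54-fold lower at 7 days than at 6 weeks (adjusted p = 2.37e-06) and 1.66-fold lower at 2 days (adjusted p = 0.0048). Tlr6, which pairs with Tlr2, was 8.7-fold lower at 7 days than at 6 weeks (adjusted p = 1.76e-06). Lbp, the secreted protein that brings lipopolysaccharide to Cd14, went the other way, with 429 to 478 CPM at 7 days against 92.9 to 196 at the other ages, and was 3.68-fold higher at 7 days than at 6 weeks (adjusted p = 6.14e-06). Tlr4 itself was at 37.4 to 47.7 CPM at 7 days and 66.5 to 93.5 at 6 weeks, a difference of -0.88 on the log2 scale (adjusted p = 0.0761). Its levels at 14 days were 27.6 to 30.1 CPM, and there it was called lower than at 6 weeks. In that comparison 1 of the 11 genes was higher (Lbp) and 4 were lower, beside 9.68% and 9.26% of all genes. Lbp, Traf6 and Tlr4 were named after their values were seen. The neutrophil markers Csf3r, Cxcr2, Mmp9 and Ly6g were also lower at 7 days than at 6 weeks, 4 of 8 in all with 1 higher, and mast cell markers were highest at 2 days, as given above; their part was not tested.

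Ncl, the gene of nucleolin, which serves ribosomal RNA synthesis (chr1:86344719-86359400, minus strand), was higher at the 2 youngest ages. Its levels were 202, 122 and 177 CPM at 2 days, 174, 171 and 187 at 7 days, 109, 121 and 118 at 14 days, and 106, 97.8 and 106 at 6 weeks. All libraries of 2 and 7 days were above all of 14 days and 6 weeks, with replicate 2 of 2 days the closest to them. The Y-linked counts divide the libraries between the same ages, so sex cannot be told apart from age in this split. Ncl was 1.62-fold higher at 2 days (log2 fold change 0.70, SE 0.15, adjusted p = 0.00316) and 1.72-fold higher at 7 days (adjusted p = 0.00114) than at 6 weeks, and it fell 1.53-fold from 7 to 14 days (adjusted p = 0.00596). At 14 days the difference from 6 weeks was 0.17 (95% interval -0.16 to 0.49, adjusted p = 0.485). The fall from 2 to 14 days, -0.53 (adjusted p = 0.0227), was -0.48 without replicate 1 of 14 days (adjusted p = 0.0629) and -0.71 without replicate 2 of 2 days (adjusted p = 0.000181). Small nucleolar RNAs lie within Ncl, and 2 of them share 133 and 56 bases with its exons in the annotation.

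Of 16 other nucleolar genes, which serve ribosome assembly and were all tested, 7 were higher and 0 lower at 2 days than at 6 weeks, beside 20.7% of all genes higher and 19.7% lower. At 7 days 9 were higher and 0 lower, beside 24.5% and 26.6%, and at 14 days 0 were called, beside 18.9% of all genes. From 7 to 14 days 11 fell and 0 rose (median log2 fold change -0.94, against 0.02 over all genes), beside 21.9% and 24% of all genes. Npm1, or nucleophosmin, was at 110 to 162 CPM at 2 days, 197 to 257 at 7 days, 61.7 to 90.8 at 14 days and 62.3 to 71.5 at 6 weeks, 3.49-fold higher at 7 days than at 6 weeks (adjusted p = 9.93e-06). Nop58, a core protein of small nucleolar ribonucleoproteins, was 3.13-fold higher (adjusted p = 5.19e-05). From 2 to 7 days 7 of the 16 rose and 0 fell, beside 22.9% and 25.8% of all genes. Npm1 was among them, with a log2 fold change of 0.74 (adjusted p = 0.00436), while Ncl differed by 0.08 (adjusted p = 0.675), and by -0.07 without replicate 2 of 2 days. Markers of granulocyte progenitors were highest at 2 and 7 days, and those of erythroid cells at 7 days: of the erythroid list 8 of 8 were higher at 7 days than at 6 weeks, and of the progenitor list 4 of 5. The part of such cells in the level of Ncl was not tested.

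**Figure D4:**
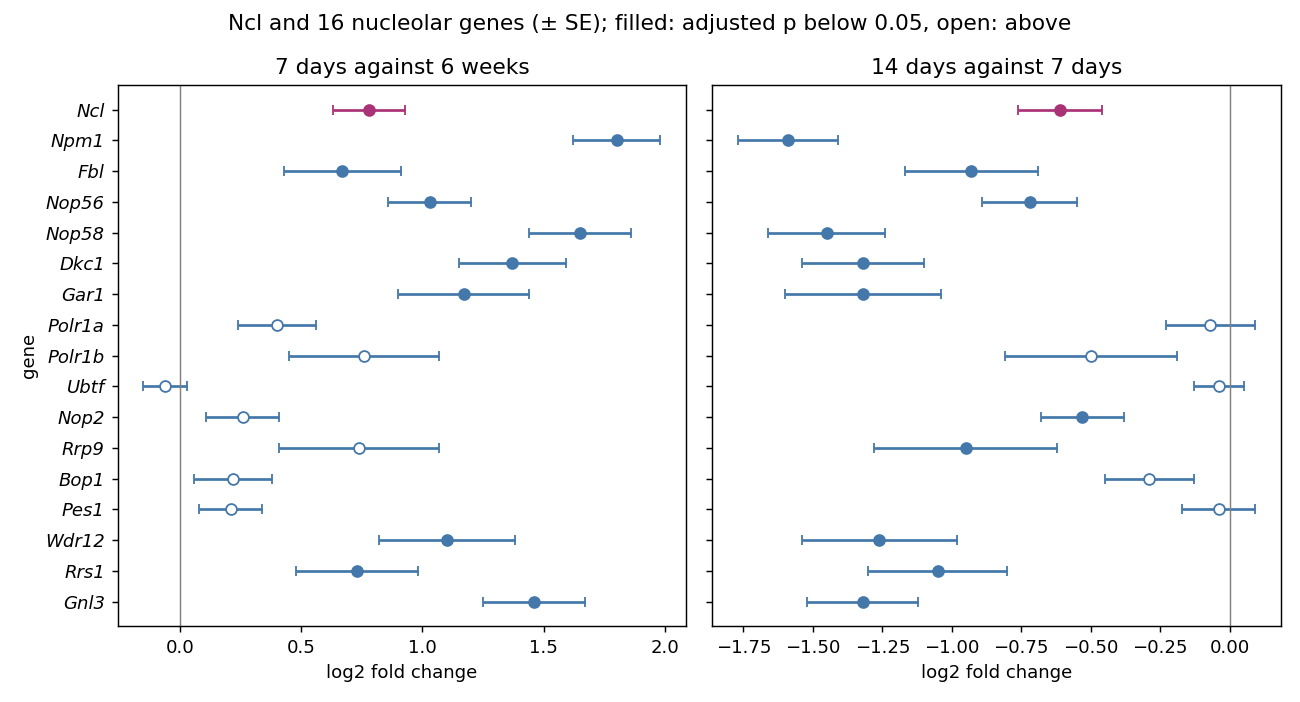
Log2 fold change (horizontal axes, ± SE) of Ncl and 16 nucleolar genes between 7 days and 6 weeks (left) and between 14 and 7 days (right), filled where the edgeR adjusted p was below 0.05. In the left panel 9 of the 16 are filled and to the right of 0, and in the right panel 11 are filled and to the left.

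Levels per kilobase of mRNA can be set side by side across the 10 genes. At 6 weeks the order was Sorl1 (243 ± 10.9 CPM per kb, SD, n = 3), Cd14 (127 ± 38.0), Lrp10 (90.8 ± 9.01), Lrp1 (28.0 ± 2.53), Ncl (12.6 ± 0.582), Lrpap1 (6.42 ± 0.245), Lrp8 (4.56 ± 0.790), Itln1 (3.18 ± 0.870), Lrp12 (1.14 ± 0.210) and Lrp2. No neighbours in this order overlapped in their libraries. At 2 days Cd14 came first (306 ± 21.6), then Sorl1 (162 ± 47.5) and Lrp10 (72.9 ± 1.25), and Lrpap1 (7.40 ± 1.38) overlapped with Lrp1 (6.23 ± 0.775). At 14 days Sorl1 (194 ± 29.2) and Cd14 (189 ± 74.3) overlapped, as did Lrp8 and Lrpap1. Per-kilobase values rest on annotated transcript lengths, taken from the longest coding form, with forms tagged as principal first. For Ncl this was 8202 bases. If shorter forms make up its RNA, its level per kilobase is understated and its place in the order would be higher.

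Against 6 weeks, 2 of the 9 tested genes were higher at 2 days (Cd14, Ncl) and 3 lower (Lrp1, Itln1, Sorl1). Of all 15494 genes 40.4% were called in that comparison, 20.7% higher and 19.7% lower. Without replicate 2 of 2 days, 9 of 10 were called, 5 higher and 4 lower, among them Lrp2, Lrp12, Lrp10 and Lrpap1, beside 51.2% of all genes. With that library and replicate 1 of 14 days both left out, it was 9 again, beside 56.6% of all genes. At 7 days 1 was higher (Ncl) and 6 were lower (Lrp1, Lrp8, Lrp10, Itln1, Cd14, Sorl1), beside 24.5% and 26.6% of all genes and 51% in either direction. The median log2 fold change of the 9 at 7 days was -0.67, against -0.01 over all genes. With libraries scaled by their totals alone, the median of all genes at 7 days moved from -0.01 to 0.16 and the share of higher genes among those called rose to 59.3%. In that setting 6 of the 9 genes were called, beside 49.7% of all genes. Itln1, among the lower genes at each younger age, passed the filter through its 6-week libraries alone. At 14 days 1 was higher (Lrp8) and 4 were lower (Lrp1, Lrp10, Lrp12, Itln1), beside 18.9% of all genes in either direction, 9.68% higher and 9.26% lower. The count at 14 days was 2 of 10 without replicate 2 of 14 days, without replicate 1 or without replicate 3 of 6 weeks. Of all genes 12.7%, 10.7% and 10.5% were called in these repeats. It was 3 of 10 without replicate 1 or replicate 3 of 14 days, beside 14.9% and 13.2% of all genes.

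**Figure D5:**
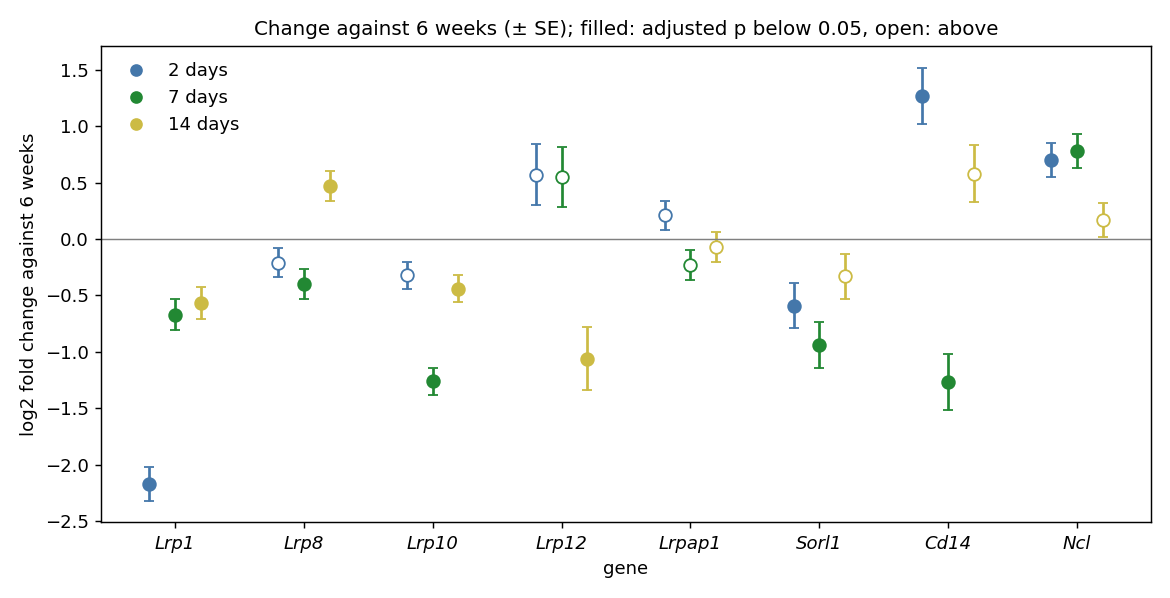
Log2 fold change against 6 weeks (vertical axis, ± SE) of 8 tested genes at 2, 7 and 14 days, filled where the edgeR adjusted p was below 0.05 and open where above. Lrp1 is lowest at 2 days (-2.17), Lrp10 and Cd14 at 7 days (-1.26 and -1.27) and Lrp12 at 14 days (-1.06); Itln1 is left out because its younger libraries had 0 counts.

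Between the younger ages, 1 of the 9 genes rose from 2 to 7 days (Lrp1) and 3 fell (Lrp10, Cd14, Lrpap1), beside 48.7% of all genes called, that is 22.9% of all genes higher and 25.8% lower. From 7 to 14 days 4 rose (Lrp8, Lrp10, Cd14, Sorl1) and 2 fell (Lrp12, Ncl), beside 45.9% of all genes called, 24% higher and 21.9% lower. From 2 to 14 days 2 rose (Lrp1, Lrp8) and 2 fell (Lrp12, Ncl), beside 25.1% of all genes called, 12.8% higher and 12.3% lower. Without replicate 2 of 2 days this last count was 7 of 10, beside 36.5% of all genes. In the joint test of any difference 8 of the 9 genes were called, beside 69.2% of all genes. The comparisons share libraries and are not independent of each other.

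Some of the 10 genes had like or opposite patterns over the 12 libraries. The closest pair was Lrp10 and Sorl1 (Pearson r of log2 CPM = 0.80), and the most opposite was Ncl and Sorl1 (r = -0.94); Lrp8 and Lrp12 had r = -0.77. These are descriptions over libraries that fall into 4 ages and share their depth and cell makeup. Within 2 days the library highest in Sorl1 was the lowest in Ncl, and so it was within 14 days. Of other genes, the most like Sorl1 were Cd44, Fyb and Myo1f (r = 0.991, 0.989 and 0.987), and the most like Ncl were Podxl, Gpam and Erh (0.983, 0.974 and 0.967). Those most like Lrp1 were Adrb1, Hs3st2 and Tmem51 (0.990, 0.987 and 0.985), most like Lrp10 Sbno2, Fchsd1 and Borcs6 (0.992, 0.991 and 0.989), and most like Cd14 Ppp1r12c, Il1r2 and Mindy1 (0.984, 0.981 and 0.978). Lrp8 was most like Sept1 (0.970), Lrp12 like Maged2 (0.958) and Lrpap1 like Keap1 (0.931).

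Other receptors and partners of the family were read from lists of known members. The counts of these lists stand beside 20.7% of all genes higher and 19.7% lower at 2 days than at 6 weeks, 24.5% and 26.6% at 7 days, and 9.68% and 9.26% at 14 days. Each list held 2 to 12 tested genes. Of 11 other LDL receptor family genes 7 were tested: 1 was higher and 4 were lower at 2 days than at 6 weeks, 1 and 1 at 7 days, and 1 and 1 at 14 days. Ldlrad3, a small family member, was at 2.19 to 3.00 CPM at 2 days, 4.93 to 6.48 at 7 days, 23.0 to 25.1 at 14 days and 6.02 to 8.25 at 6 weeks. It was 8.71-fold higher at 14 than at 2 days (log2 fold change 3.12, SE 0.18, adjusted p = 2.94e-07), and like Lrp8 it was highest at 14 days in all 3 libraries. Lrp6, the Wnt co-receptor, was highest at 7 days, at 54.2 to 59.5 CPM against 27.6 to 35.4 at the other ages, and was 1.95-fold higher there than at 6 weeks (adjusted p = 6.51e-06). Of the VPS10 receptors other than Sorl1, 2 of 4 were tested: Sort1, or sortilin, had no call in any of the 6 pairs of ages (joint adjusted p = 0.168), and Sorcs2 was 6.11-fold lower at 14 than at 2 days (adjusted p = 0.000209).

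Of 12 chaperones, adaptors and shedding enzymes of these receptors 9 were tested, with 2 higher and 2 lower at 2 days than at 6 weeks, 1 and 3 at 7 days, and 1 and 1 at 14 days. Dab2, an endocytic adaptor that binds Lrp1 and Lrp2, was at 12.4 to 16.7 CPM at 2 days, 11.7 to 12.02 at 7 days, 1.75 to 2.91 at 14 days and 2.08 to 2.81 at 6 weeks. The 6 libraries of the younger 2 ages were thus above all 6 of the older ages, and Dab2 fell 5.23-fold from 7 to 14 days (adjusted p = 5.45e-06). Y-linked counts split the libraries in the same way, so sex cannot be told apart from age here.

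Of 14 listed ligands of Lrp1 and of the sorting receptors, 12 were tested. Beside 40.4%, 51% and 18.9% of all genes called at 2, 7 and 14 days against 6 weeks, 5 were higher and 5 lower at 2 days than at 6 weeks, 6 and 4 at 7 days, and 2 and 5 at 14 days. Thbs1, thrombospondin 1, was 181-fold higher at 2 days than at 6 weeks (log2 fold change 7.50, SE 0.27, adjusted p = 4.02e-09) and was still 57.7-fold higher at 14 days. Apoe, a lipoprotein ligand that macrophages make in quantity, was 5.2-fold lower at 2 days (adjusted p = 3.51e-07). The sum of the monocyte and macrophage markers was lowest at that age. Apoe was at 258 to 309 CPM at 7 days and 268 to 370 at 14 days. Between these ages the sum of those markers went from 2172 to 2218 CPM down to 1218 to 1559. The part of macrophages in the level of Apoe was not tested.

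Lactoferrin itself, Ltf, was at 7907 to 9912 CPM at 2 days, 13355 to 16722 at 7 days, 13580 to 17084 at 14 days and 11860 to 19997 at 6 weeks. Only the 2-day libraries stood apart, below all others, and Ltf rose 1.63-fold from 2 to 7 days (adjusted p = 0.0165). Of 7 listed genes for lactoferrin, transferrin and further binding candidates, 5 were tested. Beside the shares of all genes given above, 2 were higher and 3 lower at 2 days than at 6 weeks, 2 and 2 at 7 days, and 1 and 1 at 14 days. Tfrc, the transferrin receptor, was 7.59-fold higher at 7 days than at 6 weeks (adjusted p = 5.05e-07), at 142 to 165 CPM against 17.7 to 22.4, and it is itself one of the erythroid markers that were highest at 7 days. Trf, transferrin, was 4.06-fold lower at 2 days than at 6 weeks (adjusted p = 6.41e-07).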

How the data were processed

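The data are whole-number counts per gene for 12 libraries, deposited by the authors in 1 table. The submitters' processing notes list RSEM 1.2.3, the build mm10 and DESeq2 without a version; what each was used for is not given in the sources used here. The counts may be rounded RSEM estimates, which divide reads among similar genes. Per the labels' protocols, polyadenylated RNA was extracted with Trizol, primed with random hexamers and amplified by PCR, and strand is not stated. Symbols came from GENCODE M21 for 37570 of 38887 identifiers.

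Totals of 34495767 to 38795913 counts keep counting error small for all but rare transcripts. Counts were scaled by trimmed mean of M-values and filtered with filterByExpr (minimum count 10). They were tested with edgeR 4.0.16 (quasi-likelihood, age as the only term, 12 libraries, R 4.3.3), with Benjamini-Hochberg adjustment over all 15494 genes and a threshold of 0.05. SE is the absolute log2 fold change over the square root of F. The alternatives were DESeq2 1.42.0, library totals alone, no filter, limma-voom (limma 3.58.1), the 2 ages alone, each library left out, a replicate block and, added after seeing the data, 2 libraries left out together. Likeness was the Pearson correlation of log2 CPM, among tested genes whose mean reached 1 CPM. Named were all 10 genes, Ltf, the 2 listed genes per group with the smallest joint p, the defining markers of cell type lists and the 3 genes most like each tested gene. Marker lists are given mainly as sums, and for Lrp8, Lrp12 and Lrpap1 only the first like gene. A gene that the rule named is not reported here. The 10 genes and all lists were chosen with earlier results of these data known. Promoter sequences are RefSeq's (GRCm38.p6).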

Additional observations from a re-analysis of the deposited data

How the results depend on the processing

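Over 54 fold changes of single genes, 927 of 1023 repeats kept direction and side of the threshold, 55 lost a call, 28 gained one and 13 changed sign, all 13 in differences that were not called. The sign changes were Lrpap1 between 14 days and 6 weeks (0.01 with library totals alone); Lrp12 between 7 and 2 days (0.08 with library totals alone, 0.03 with no filter, 0.05 with limma-voom, 0.00 with the 2 ages alone, and -0.29 to 0.24 over libraries left out); Ncl between 7 and 2 days (-0.07 to 0.30 over libraries left out, -0.07 with replicate 2 of 2 days and replicate 1 of 14 days both left out); and Lrp1 between 14 and 7 days (-0.01 to 0.21). With the replicate block Lrp12 between 7 and 2 days was 0.03, and the counts of the 10 genes called were 6, 7 and 4 at 2, 7 and 14 days against 6 weeks. Of all genes 36%, 46.8% and 14.6% were called there. Deviations of same-numbered libraries from their age means had r from -0.253 to 0.202 over 18 pairs, 2 of them above 0.1. Libraries with different numbers had r from -0.183 to 0.226 over 36 pairs, 6 of them above 0.1. With means of only 3 libraries, these values cannot decide whether the numbers pair the libraries. With 1 library left out, the genes of interest called ranged from 4 to 9 at 2 days against 6 weeks, 2 to 5 at 14 days against 6 weeks and 3 to 7 between 14 and 2 days; with both libraries out they were 9, 6 and 7. At 14 days against 6 weeks the count was 2 with library totals alone, beside 18% of all genes. All genes called at 2 days against 6 weeks ranged from 4731 to 8170 with 1 library left out, and were 8997 with both libraries out, against 6263. All genes called at 14 days against 6 weeks ranged from 1677 to 4685, and were 4869 with both libraries out, against 2934. Between 14 and 2 days they ranged from 2678 to 5833, were 1952 with the 2 ages alone and 6249 with both libraries out, against 3882. Leaving out a library can bring Lrp2 past the filter; other causes were not tested. With 3 libraries per age, some differences of over 2 SE were not called, such as Lrp10 at 2 days against 6 weeks (-0.32, SE 0.12).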
